A study of Danio rerio with 4 samples.

Results

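The aryl hydrocarbon receptor (AhR) pathway was followed through 10 zebrafish genes: the receptors ahr1a, ahr1b and ahr2, the partner arnt2, the repressors ahrra and ahrrb, and the target enzymes cyp1a, cyp1b1, cyp1c1 and cyp1c2. They were chosen by name, as every non-control probe whose gene symbol or description on the array named one of them. All 10 were on the array, with 29 of its 43603 probes and as 10 of 26621 genes with values. Of the 29 probes, 2 for arnt2 were found by their description.

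The study set Msp mutant embryos against wild-type embryos at 6 and at 3 days post fertilization (dpf). Msp is macrophage stimulating protein, a secreted relative of hepatocyte growth factor encoded by mst1. Total RNA of whole embryos of the strain wik, 30 of each genotype at each stage, was hybridised on 4 two-colour Agilent arrays, 2 per stage with the dyes swapped. Since the labels name a single RNA sample for each genotype at each stage, a dye-swapped pair of arrays counted as 1 replicate, and the design held 4 pools: Msp mutant at 6 dpf, wild type at 6 dpf, Msp mutant at 3 dpf and wild type at 3 dpf. All pools came from untreated embryos raised in E3 medium at 28 °C, so no AhR ligand was given to any group. The labels give neither the mutant allele nor whether both arrays of a stage carried the same extract.

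AhR is a ligand-activated transcription factor of the bHLH-PAS family that rests in the cytoplasm with Hsp90 and its co-chaperones. Once bound by dioxins, polycyclic hydrocarbons or some tryptophan metabolites it enters the nucleus, pairs with an Arnt protein and binds xenobiotic response elements, which induces the cyp1 enzymes and the repressor Ahrr that competes for Arnt. In zebrafish Ahr2 mediates most of the toxicity of dioxin, and cyp1a is the usual reporter of an active pathway, with signal in liver, gut, kidney and vessels.

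In each pair, array 1 carried mutant RNA in Cy5 and array 2 carried it in Cy3. Ratios are log2 of mutant over wild type, and ± is the SD of the 2 arrays, which covers labelling and hybridisation and not the spread between embryos. Across genes the ratios of the paired arrays correlated at 0.40 at 6 dpf and 0.41 at 3 dpf, and their median SD was 0.11 and 0.10. The mst1 probe, whose position relative to the mutation is not given, had ratios of -1.12 ± 0.16 at 6 dpf and -0.65 ± 0.06 at 3 dpf and fell over both stages (log2 -0.89, limma adjusted p = 0.0425). Of the markers fixed for other cell types, all 7 for hepatocytes, all 5 for neurons, all 5 for skeletal muscle, 5 of 6 for enterocytes and 3 of 6 for vascular endothelium were measured, and each of those was well above background in every pool. In whole embryos, fewer cells of a type and less RNA per cell cannot be told apart.

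Of the 10 genes 7 were kept for testing, because in at least 1 pool both arrays gave their brightest probe a signal well above background: ahr2, arnt2, ahrra and the 4 cyp1 genes. The receptors ahr1a (2 probes) and ahr1b (1 probe) and the repressor ahrrb (3 probes) were not well above background in any pool on any array. Their 6 probes had normalized log2 signals between 5.89 and 6.40. The raw median signal of an ahr1a probe was 96 and 111 in the mutant at 6 dpf over local backgrounds of 88.5 and 49, against 101 and 98 in wild type over 48 and 87. Their 24 log2 ratios lay between -0.30 and 0.38, and no fold is given for them. Of all 29 probes, 12 were well above background in all 8 channel measurements, 12 in none and 5 in some.

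**Figure D1:**
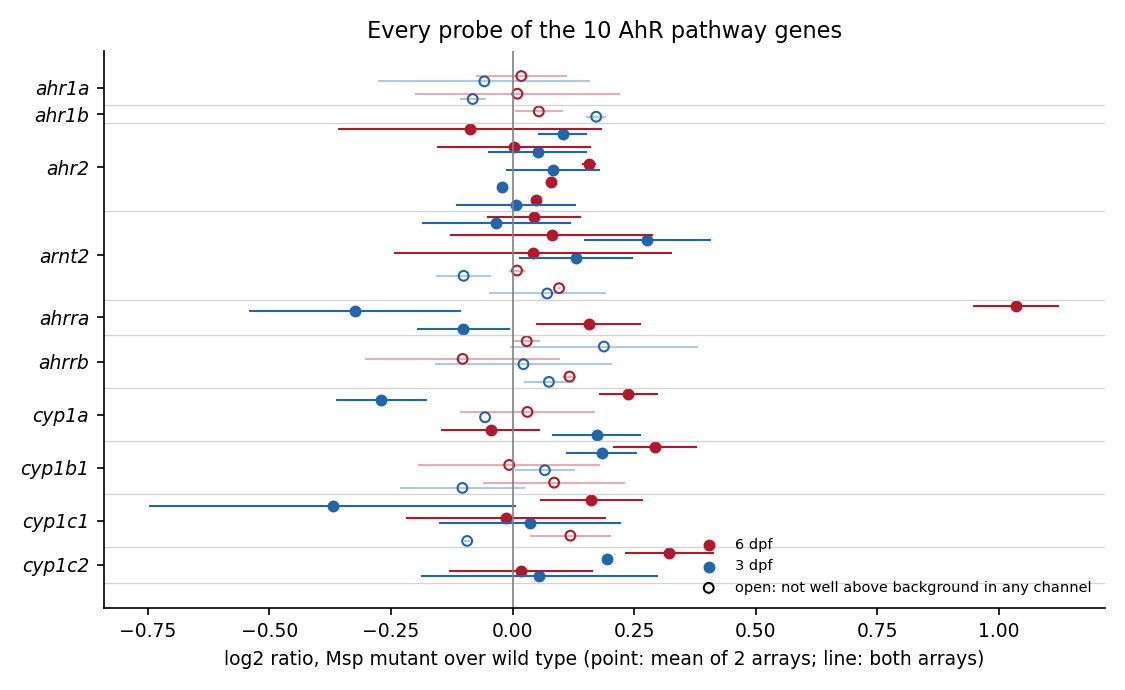
Log2 ratio of Msp mutant over wild type (x axis) for each of the 29 probes, grouped by gene from top to bottom, with 6 dpf in red above 3 dpf in blue. Points are means of 2 dye-swapped arrays, lines join both arrays, and open points mark the 12 probes not well above background in any channel. One ahrra probe at 6 dpf, at 1.03, stands apart from the rest, and the second ahrra probe lies at 0.16.

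The receptor ahr2 differed little between genotypes. Its brightest probe had ratios of -0.36 and 0.18 at 6 dpf, a mean of -0.09 ± 0.38, and of 0.05 and 0.15 at 3 dpf, a mean of 0.10 ± 0.07. The arrays of 6 dpf thus lay on opposite sides of 0. The other 4 ahr2 probes had means between 0.00 and 0.16 at 6 dpf and between -0.02 and 0.08 at 3 dpf. Over both stages the log2 ratio was 0.01 (SE 0.08, 95% interval -0.19 to 0.21, limma adjusted p = 0.979).

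The dimerisation partner arnt2, a bHLH-PAS protein most abundant in the nervous system, also lay near 0. Its brightest probe had ratios of 0.14 and -0.05 at 6 dpf (mean 0.04 ± 0.14) and of 0.12 and -0.19 at 3 dpf (mean -0.03 ± 0.22). On all 3 arnt2 probes with signal, array 1 gave a higher ratio than array 2 at both stages, so the single arrays moved with the dye. The second and the third probe averaged 0.08 and 0.04 at 6 dpf and 0.28 and 0.13 at 3 dpf. The estimate over both stages was 0.01 (95% interval -0.18 to 0.19, limma adjusted p = 0.984).

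The repressor ahrra had the largest ratio among the 7 genes kept, at 6 dpf. Its brightest probe read raw median signals of 376.5 and 309 in the mutant at 6 dpf, against 153.5 and 222 in wild type. After normalization the ratios were 1.12 and 0.95, a mean of 1.03 ± 0.13 or 2.05-fold, and the mutant was higher with either dye. At 3 dpf the raw signals were 168.5 and 102.5 in the mutant, against 156.5 and 152 in wild type, and the ratios were -0.11 and -0.54 (mean -0.32 ± 0.31). The mutant signal at 3 dpf was well above background on 1 of 2 arrays, so this lower value is weakly measured. With Agilent's processed signals the ratio was 1.57 ± 0.37 at 6 dpf and -1.32 ± 1.80 at 3 dpf. The authors' deposited table gives 1.57 at 6 dpf and, for array 2 alone, -2.56 at 3 dpf.

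The second ahrra probe, named by the same transcript on the array and well above background in all 8 channels, did not show a difference of that size. Its ratios were 0.05 and 0.26 at 6 dpf (mean 0.16 ± 0.15, 1.11-fold) and -0.20 and -0.01 at 3 dpf (mean -0.10 ± 0.13). Its raw signals were 173 and 148.5 in the mutant at 6 dpf, against 144.5 and 146 in wild type. Both probes had the same order of signs, above 0 at 6 dpf and below 0 at 3 dpf on both arrays, but the first differed by far more at 6 dpf. Over both stages ahrra stood at 0.36 (SE 0.29, 95% interval -0.36 to 1.07, limma adjusted p = 0.656).

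The enzyme cyp1a, which oxidises polycyclic hydrocarbons, was slightly higher in the mutant at 6 dpf and slightly lower at 3 dpf. Its ratios were 0.30 and 0.18 at 6 dpf (mean 0.24 ± 0.09, 1.18-fold) and -0.18 and -0.36 at 3 dpf (mean -0.27 ± 0.13, 0.829-fold). Both arrays of a stage were on the same side of 0, and the stages on opposite sides. The estimate over both stages was accordingly -0.02 (95% interval -0.33 to 0.30, limma adjusted p = 0.973). The other 2 cyp1a probes were well above background in at most 1 of 8 channels and say nothing of the gene. Of the 7 hepatocyte markers 2 had a ratio above 0 at 6 dpf and 0 at 3 dpf, and their median ratio was -0.31 at 6 dpf and -0.53 at 3 dpf. One of them, the ferroxidase cp, fell over both stages (-0.57 ± 0.09 at 6 dpf, -0.58 ± 0.02 at 3 dpf, limma adjusted p = 0.0338), while the liver fatty acid binding protein fabp10a was at 0.51 ± 0.02 at 6 dpf and -0.62 ± 0.10 at 3 dpf. The summed signal of the 7 was 88505 and 93850 in the mutant at 6 dpf, against 73682 and 72759 in wild type, and 10103 and 9790 in the mutant at 3 dpf, against 14828 and 13883 in wild type. The sum thus had the same order as cyp1a at both stages, and the median ratio only at 3 dpf. A sum weighs the brightest probes most, and at 6 dpf only fabp10a and tfa (0.16 ± 0.34) were above 0. The sum at 6 dpf therefore does not stand for all 7 markers. The part of these cells in the cyp1a values was not tested.

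The related enzymes cyp1b1 and cyp1c2 were slightly higher in the mutant on all 4 arrays. For cyp1b1, which metabolises steroids and retinoids as well as xenobiotics, the ratios were 0.21 and 0.38 at 6 dpf (mean 0.29 ± 0.12) and 0.11 and 0.26 at 3 dpf (mean 0.18 ± 0.10). For cyp1c2, one of a fish pair of cyp1c genes, they were 0.23 and 0.41 at 6 dpf (mean 0.32 ± 0.13) and 0.20 and 0.19 at 3 dpf (mean 0.19 ± 0.01). At 6 dpf these are 1.23-fold for cyp1b1 and 1.25-fold for cyp1c2, and the other 2 probes of cyp1b1 were not well above background in any channel. With Agilent's processed signals the 6 dpf ratios were 0.53 for cyp1b1 and 0.69 for cyp1c2, and with all probes of each gene averaged 0.12 and 0.17. Over both stages cyp1b1 stood at 0.24 (SE 0.08, 95% interval 0.05 to 0.42, unadjusted p = 0.0204, limma adjusted p = 0.255). The estimate for cyp1c2 was 0.26 (SE 0.08, 95% interval 0.07 to 0.45, unadjusted p = 0.0157, limma adjusted p = 0.229), so neither passed the adjusted threshold of 0.05.

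The other gene of the pair, cyp1c1, lies next to cyp1c2 in the RefSeq table of the assembly GRCz12tu, and cross-hybridisation between the 2 was not tested. Its ratios were 0.06 and 0.27 at 6 dpf (mean 0.16 ± 0.15) and -0.75 and 0.01 at 3 dpf (mean -0.37 ± 0.53). The mean at 3 dpf thus rests on 1 array. The estimate over both stages was -0.10 (95% interval -0.43 to 0.22, limma adjusted p = 0.788), and without array 1 of 3 dpf it was 0.085. The second probes of cyp1c1 and cyp1c2 were well above background in 4 and 3 of 8 channels, with mean ratios of -0.01 and 0.02 at 6 dpf and 0.04 and 0.05 at 3 dpf, which is near 0 at signals close to background.

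**Figure D2:**
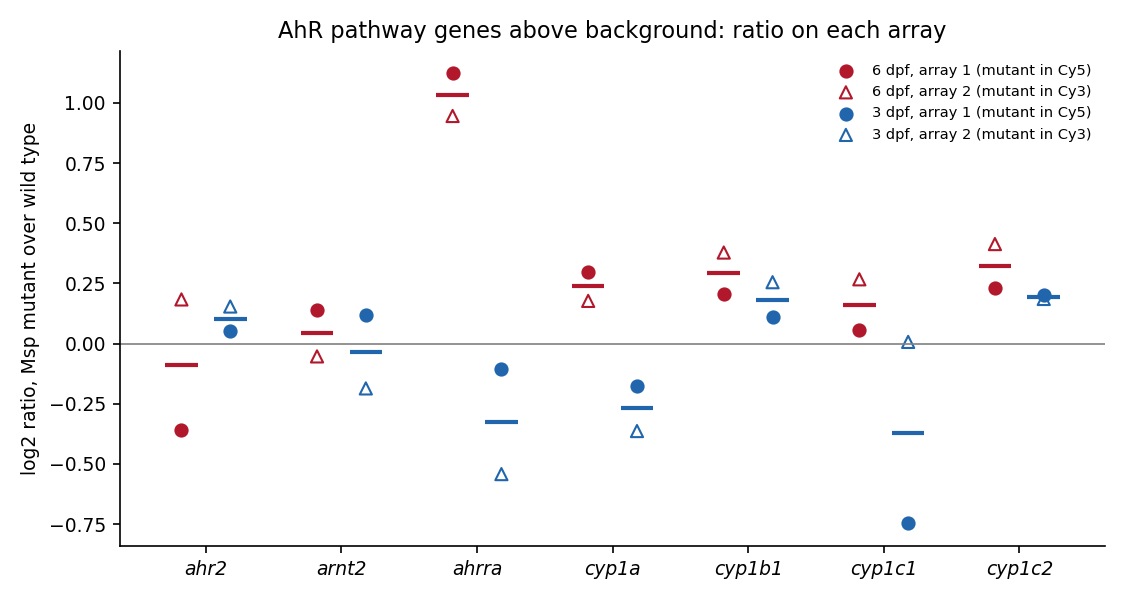
Log2 ratio of Msp mutant over wild type (y axis) on each of the 4 arrays for the brightest probe of the 7 genes kept, with 6 dpf in red to the left of 3 dpf in blue. Filled circles are array 1, open triangles array 2, and bars their mean. Both 6 dpf points lie above 0 for ahrra and the 4 cyp1 genes.

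Set against the rest of the transcriptome, 0 of the 7 genes passed limma for genotype over both stages, where 196 of 18873 genes (1.04%) did. At an unadjusted p under 0.05 the count was 2 of 7, cyp1b1 and cyp1c2, beside 13.6% of all genes. A fit over single probes called 0 of 16 probes of the pathway and 479 of 31040 in all. The genotype test had 1 residual degree of freedom. It took the 2 stages as replicates, so ratios that differ between stages, as in ahrra and cyp1a, count as error. It therefore cannot judge a difference of 1 stage. Each stage on its own allowed no test, and was described by a size rule, which asked for a mean log2 ratio of 1 or more in either direction, at least 0.5 of it on each array, and signal well above background in the higher genotype. At 6 dpf 1 of 7 genes passed it, ahrra, beside 98 genes in all (0.519%), and its ratio ranked 46 from the top of 18873. The call depends on the probe: taking the mean of all ahrra probes gave a ratio of 0.60, and array 2 alone 0.95, and neither reached the size limit. At 3 dpf 0 of 7 passed, beside 0.323% of all genes.

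Ratios were above 0 on both arrays of 6 dpf in 5 of 7 genes, ahrra and all 4 cyp1 genes, beside 29.2% of all genes. At 3 dpf 3 of 7 were above 0 on both arrays (ahr2, cyp1b1 and cyp1c2) beside 31.3% of all genes, and 2 of 7 were below (ahrra and cyp1a) beside 26.7%. Only cyp1b1 and cyp1c2 among the 7 were above 0 on all 4 arrays, as were 13.6% of all genes. In ahrra and cyp1a the stages lay on opposite sides of 0, as in 10.5% of all genes. The median ratio of the 7 was 0.24 at 6 dpf and -0.03 at 3 dpf, where that of all genes was 0.01 at each stage. Several of the genes answer to the same factor and are not independent, so these counts are a description.

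With age, cyp1a and ahrra rose, while cyp1b1 and cyp1c2 were lower at 6 than at 3 dpf. The signal of cyp1a was 9.46 and 9.44 in the mutant at 6 dpf and 9.16 and 9.26 in wild type, against 7.66 and 7.67 in the mutant at 3 dpf and 7.84 and 8.03 in wild type (normalized log2 signal, array 1 and array 2). All 4 values of 6 dpf were above all 4 of 3 dpf. This was a 3.45-fold difference in the mutant and 2.43-fold in wild type, and cyp1a rose by a log2 of 1.53 (SE 0.13, 95% interval 1.22 to 1.85, limma adjusted p = 0.00024). Averaging it with its 2 dim probes gave 0.64, under the size limit.

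The repressor ahrra also rose with stage, unevenly in the genotypes. The signal of its brightest probe was 8.42 and 8.43 in the mutant at 6 dpf and 7.30 and 7.49 in wild type, against 6.92 and 6.29 in the mutant at 3 dpf and 7.02 and 6.84 in wild type. This was 3.54-fold in the mutant and 1.38-fold in wild type. The mutant signal at 3 dpf was well above background on 1 of 2 arrays, so the 3.54-fold is weakly measured. The estimate over both genotypes was 1.14 (SE 0.29, 95% interval 0.43 to 1.86, limma adjusted p = 0.0165). On the second probe 6 over 3 dpf was 1.19-fold in the mutant and 0.993-fold in wild type, so the rise, like the genotype ratio, rests on 1 probe. The estimate was under the size limit of 1 with both probes averaged (0.63), with no background subtraction (0.95) and without array 2 of 3 dpf (0.94). The difference between the genotypes in this rise has no test, with 1 pool each.

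Both of these, 2 of 7 genes, passed the adjusted threshold with a log2 change of at least 1, beside 10.3% of all genes (4.95% higher, 5.36% lower). Without the size limit 61.3% of all genes passed, 31.3% higher and 30% lower, and 6 of the 7 did. Smaller positive changes passed for ahr2 (0.35, limma adjusted p = 0.0124) and arnt2 (0.36, limma adjusted p = 0.00716). Smaller negative ones passed for cyp1b1 (-0.47, limma adjusted p = 0.00275) and cyp1c2 (-0.43, limma adjusted p = 0.00438). Raw median signals of the brightest ahr2 probe did not rise throughout. In the mutant they were 1627 and 1726 at 6 dpf, against 2353.5 and 1702 at 3 dpf. In wild type they were 1454 and 2361 at 6 dpf, against 1347.5 and 2552 at 3 dpf. Signals were scaled between arrays in every alternative, so the part of that scaling in these changes was not tested. The call of ahr2 was lost without array 2 of 6 dpf (0.24, limma adjusted p = 0.158) and with all its probes averaged (0.11, limma adjusted p = 0.158), and that of arnt2 without array 2 of 3 dpf (0.17, limma adjusted p = 0.177). For cyp1c1 the change was -0.18 (95% interval -0.51 to 0.14, limma adjusted p = 0.267). The mean signal of cyp1b1 was 7.56 in the mutant and 7.26 in wild type at 6 dpf, against 7.97 in the mutant and 7.79 in wild type at 3 dpf. That of cyp1c2 was 7.37 in the mutant and 7.04 in wild type at 6 dpf, against 7.73 in the mutant and 7.53 in wild type at 3 dpf. In both genes each genotype was thus lower at 6 dpf, where cyp1a was higher in each. Only 1 of the 5 ahr2 probes, the dimmest, differed in sign, at -0.30 in the mutant and -0.34 in wild type. In the fit over single probes it passed as lower (-0.32, limma adjusted p = 0.00932). The ahr2 probes at 0.35 and 0.25 passed as higher (limma adjusted p = 0.0107 and 0.0239). Those at 0.14 and 0.15 did not pass (limma adjusted p = 0.149 and 0.125).

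**Figure D3:**
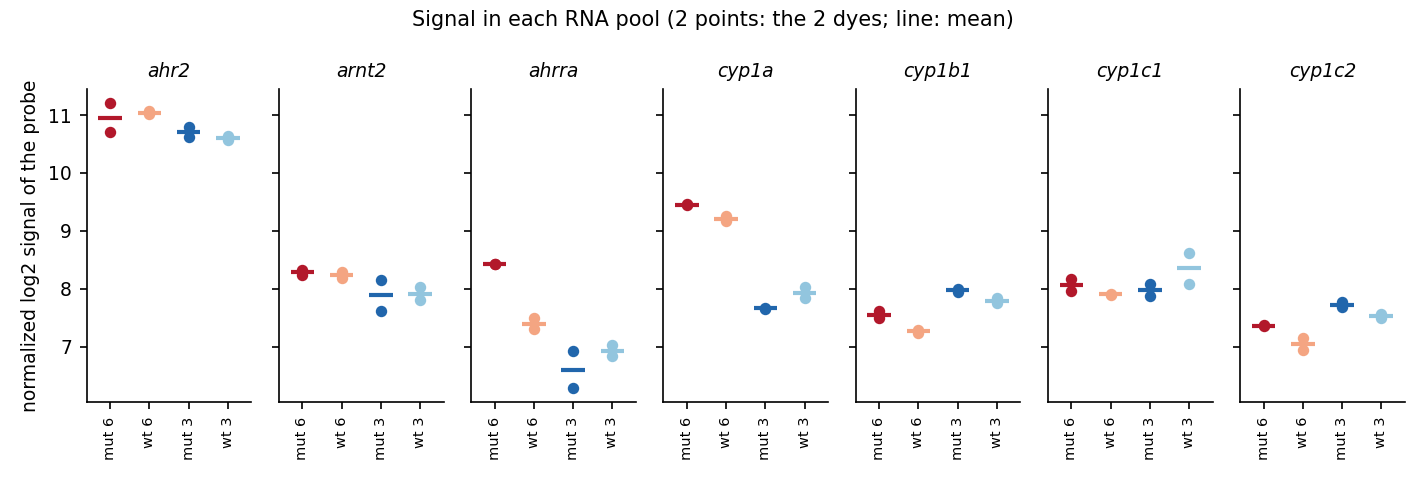
Normalized log2 signal (y axis) of the brightest probe of each of the 7 genes in the 4 RNA pools, Msp mutant and wild type at 6 dpf and then at 3 dpf. The 2 points are the 2 dye orientations and the bar is their mean; levels of different genes come from different probes and are not comparable. For cyp1a every 6 dpf point lies above every 3 dpf point, and for ahrra the mutant pool at 6 dpf, at 8.43, stands above the other pools, which lie at 7.39 and below.

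Some markers of liver and gut rose with stage as well. Of all genes 4.95% rose past the stage rule, an adjusted p under 0.05 with a log2 change of at least 1. Of the hepatocyte markers 3 of 7 rose with a log2 change of at least 1, fabp10a by 4.49, serpina1 by 2.15 and apoa2 by 2.13, and the list's median was 0.84. Of the enterocyte markers 3 of 5 rose, chia.2 by 4.51, slc15a1b by 3.68 and fabp2 by 1.38, with a median of 1.38, while apoa4a went the other way at -0.60 (limma adjusted p = 0.00102). The summed enterocyte signal was 11510 and 12105 in the mutant at 6 dpf and 12592 and 12154 in wild type, against 2821 and 2762 in the mutant at 3 dpf and 3196 and 3149 in wild type. By the same rule 0 of 3 markers of vascular endothelium rose, with a median of -0.14. Of the markers of neurons 0 of 5 rose and 1 fell (median 0.03), beside 5.36% of all genes lower. Of those of skeletal muscle 0 of 5 rose (median 0.05). The part of any of these cell types in the rise of cyp1a was not tested.

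**Figure D4:**
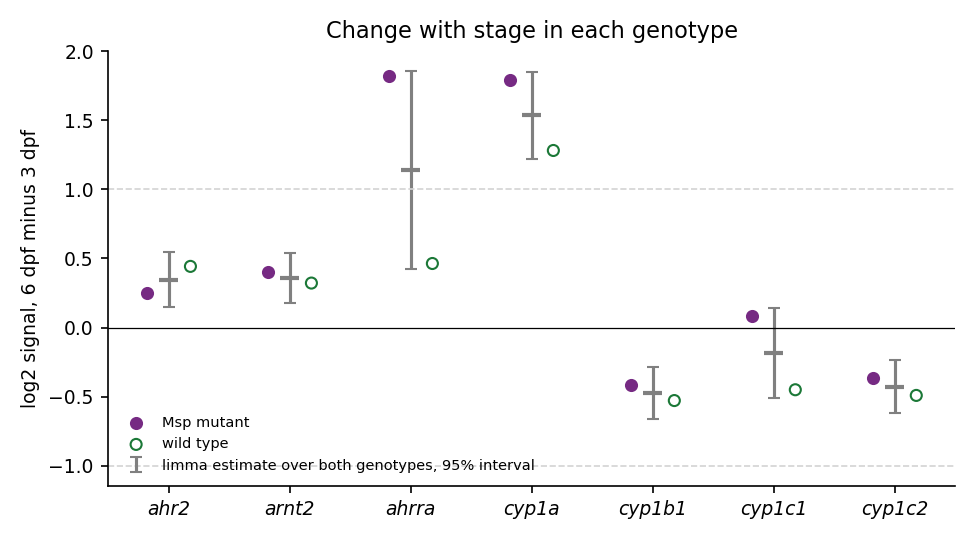
Log2 signal at 6 dpf minus 3 dpf (y axis) for the 7 genes kept, in the Msp mutant (filled purple) and in wild type (open green), with the limma estimate and its 95% interval in grey. Dashed lines mark the size limit of 1 in either direction. The genotypes lie farthest apart in ahrra, at 1.82 in the mutant and 0.46 in wild type, and the 3 dpf value of that mutant point is weakly measured.

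The cytoplasmic chaperone complex that holds AhR was measured in full, with 6 of 6 genes kept, and 0 passed limma for genotype. None of the 6 had an unadjusted p under 0.05. Its median ratio was 0.16 at 6 dpf and -0.07 at 3 dpf. All 6 were above 0 at 6 dpf and 2 of 6 at 3 dpf, beside 52.2% and 54.4% of all genes. At 6 dpf hsp90aa1.2 had 0.36 ± 0.35 and hsp90ab1 0.16 ± 0.61. The SD was about equal to the ratio in hsp90aa1.2 and larger than it in hsp90ab1. It was also larger in hsp90aa1.1 (0.16 ± 0.33), aip (0.16 ± 0.44) and ptges3b (0.03 ± 0.11). Only ptges3a had an SD well below its ratio (0.16 ± 0.06). The counts above 0 are of means of both arrays, so they do not show a rise of the complex. With stage 1 of 6 fell, beside 5.36% of all genes: ptges3b, which encodes a p23 co-chaperone, had a log2 change of -1.95.

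Of 17 other bHLH-PAS proteins and coactivators 9 were kept, with median ratios of 0.03 at 6 dpf and 0.04 at 3 dpf. None passed limma for genotype, and none had an unadjusted p under 0.05. The neuronal activity-induced factor npas4a was at -0.42 ± 0.14 at 6 dpf. At 3 dpf it was at 1.23 ± 0.14 and passed the size rule, as 1 of 9 beside 0.323% of all genes. The hypoxia factor relative hif1al had 0.33 ± 0.29 at 6 dpf and 0.04 ± 0.16 at 3 dpf. With stage npas4a rose by 3.50 and sim2 fell by 1.16 on the log2 scale. That was 1 of 9 higher and 1 of 9 lower, beside 4.95% and 5.36% of all genes.

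Among 20 other genes reported to respond to AhR 15 were kept and 0 passed limma for genotype. At an unadjusted p under 0.05 the count was 3 of 15, beside 13.6% of all genes. The median ratio of the 15 was 0.09 at 6 dpf and 0.05 at 3 dpf. Of them 11 and 8 lay above 0, where 52.2% and 54.4% of all genes did. The glutathione transferase gsta.1 had -0.33 ± 0.12 at 6 dpf and -0.38 ± 0.27 at 3 dpf (limma adjusted p = 0.111), and the glycolytic regulator pfkfb3 0.33 ± 0.04 and 0.21 ± 0.20 (limma adjusted p = 0.212). None of the 15 changed with stage by a log2 of 1 or more. Smaller changes passed the adjusted threshold in both directions, as did 61.3% of all genes at any size. Among them were pfkfb3 at 0.97 and sox9b at -0.96 (limma adjusted p = 0.000196 and 0.000186).

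The list for tryptophan breakdown covered enzymes that make kynurenine, an endogenous AhR ligand, and enzymes that act on it, such as kmo. Of its 8 genes 4 were kept, tdo2a, tdo2b, afmid and kmo, and none had a genotype call. At an unadjusted p under 0.05 the count was 1 of 4, beside 13.6% of all genes. The median ratio of the 4 was -0.10 at 6 dpf and -0.05 at 3 dpf. The tryptophan dioxygenase gene tdo2a had -0.21 ± 0.32 at 6 dpf and -0.27 ± 0.22 at 3 dpf, and tdo2b -0.10 ± 0.17 at 6 dpf. With stage 3 of 4 rose, beside 4.95% of all genes. On the log2 scale tdo2a rose by 1.79 and afmid, the formamidase of the next step, by 1.21. The rise of tdo2b was at least 6.04-fold, since it was not well above background in either pool at 3 dpf. This gene was kept through the 6 dpf pools only, where it is high, so its part in the count is no support for a rise of the list.

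Of 15 xenobiotic P450 genes of other families and their partners 9 were kept, with median ratios of 0.04 at 6 dpf and 0.07 at 3 dpf. None passed limma for genotype, and 1 of 9 had an unadjusted p under 0.05, beside 13.6% of all genes. The largest ratios were those of cyp2aa4, at 0.59 ± 0.02 at 6 dpf and 0.38 ± 0.01 at 3 dpf (limma adjusted p = 0.0702). At each stage its signal was well above background on 2 arrays in the mutant and on 1 in wild type. It was thus kept through the mutant pools only, and its ratios are weakly measured. The gut and liver enzyme cyp3a65, whose transcript depends on Ahr2 in zebrafish larvae, had 0.47 ± 0.18 and 0.07 ± 0.25. With stage 4 of 9 passed, all higher at 6 dpf, beside 4.95% of all genes. Of these 4, cyp3a65 rose by 4.87 and cyp2u1 by 1.28 on the log2 scale, and cyp2n13 and cyp2p6 passed too. At 3 dpf those last 2 were well above background on 1 array of wild type and on none of the mutant, so no size is given for them. They were kept through the 6 dpf pools only, where they are high, so their part in the count is no support for a rise of the list.

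The genes whose 4 array ratios lay nearest to those of ahrra, by Euclidean distance over the 4 arrays among 11768 named genes, were hbae3 (distance 0.34), an embryonic alpha globin, tnni2b.1 (0.50), a fast muscle troponin, and opn1mw2 (0.50), a green cone opsin. Their ratios at 6 dpf were 0.80 and 0.995 for hbae3, 0.76 and 0.74 for tnni2b.1, and 1.31 and 0.87 for opn1mw2, and at 3 dpf all were below 0. Unlike ahrra, hbae3 and tnni2b.1 were lower at 6 than at 3 dpf, by log2 values of -2.53 and -1.33, and opn1mw2 was higher by 2.06. The likeness in the genotype ratios of 4 arrays was the rule of choice, taken on the brightest ahrra probe alone. For the direction with age it extends to opn1mw2 and not to hbae3 and tnni2b.1.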

How the data were processed

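The authors deposited Agilent scanner files, made with Feature Extraction 10.5.1.1 per the file headers (the submitters' processing notes name 8.5.1.1), with probes annotated to danRer6. Per spot, the deposited files hold linear intensity (the median of the spot and of its local background), a processed intensity, and a log10 ratio of red to green per the file headers. In the series table, the authors deposited log2 ratios under 3 arrays, and the value under array 2 of 6 dpf is the mean of both 6 dpf arrays. The column for array 1 of 3 dpf matched no array, was read as a score of unknown scale, centring and direction among the deposited values, and stayed out. Each column had a median of 0.

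Intensities were corrected with normexp (offset 50), normalized by loess within arrays and turned to mutant over wild type, and signals were scaled by Aquantile between arrays, in R 4.3.3 with limma 3.58.1. Outlier spots (5 to 25 per array) and control spots were left out, and no spot was saturated. Between 59.6% and 74.8% of probes per channel were well above background. The number of pools, 1 per genotype and stage, limits the precision. The limma SE, intervals and p-values come from single pools and do not measure the spread between embryos. The brightest probe stood for a gene, and 18873 of 26621 genes were kept. For genotype, limma tested the mean ratios of the 2 stages against 0, and for stage it was run on the 4 pools with genotype as a term, both with 1 residual degree of freedom and Benjamini-Hochberg adjustment over all genes kept. A dim group enters a fold as a bound: on each array the lowest signal well above background, or the probe's own signal where that is higher. Python 3.11.15 with pandas 2.3.3 and matplotlib 3.10.9 read the files and drew the figures. The scripts were tested on simulated data. All probes of the 10 genes are described; from each further pathway list, the 2 genes with the largest ratio over both stages, any gene called, and the 3 genes nearest to ahrra were named. The liver and gut markers were named after their values were seen. The members and lists were chosen with earlier results of these data known. Other backgrounds, normalizations, probe rules and arrays left out were tried as alternatives. All arrays lay on 1 slide, so slide could not be set apart, and stage cannot be told apart from array.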

Additional observations from a re-analysis of the deposited data

Results flagged for a closer look

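The genotype ratio of ahrra had opposite signs at the stages on every array: it was above 0 on both arrays of 6 dpf and below 0 on both of 3 dpf, and the ratio at 6 dpf minus that at 3 dpf was 1.359 on the log2 scale. The mutant value at 3 dpf in this difference was well above background on 1 of 2 arrays. The second ahrra probe gave a difference of 0.26. The ratio of cyp1a also changed side, with a difference of 0.5076. With 1 pool per genotype and stage neither difference was tested, and 10.5% of all genes had both arrays of the stages on opposite sides.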

How the results depend on the processing

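The counts depended on the processing, and the cause was not tested. With Agilent's processed signals genotype called 30 genes (16 higher, 14 lower) in place of 196 (84 higher, 112 lower), the size rule held 322 genes at 6 dpf and 271 at 3 dpf in place of 98 and 61, and stage called 4235 in place of 1945. Without a filter on dim probes genotype called 395. With a normexp offset of 10 the size rule held 163 genes at 6 dpf and 107 at 3 dpf. With 1 array left out, genotype called 209 to 752 genes (353 without array 1 and 752 without array 2 of 3 dpf), the size rule 98 to 123 at 6 dpf and 61 to 103 at 3 dpf (103 without array 2), and stage 1981 to 2043. When all probes of a gene were averaged the size rule held 29 genes at 3 dpf, and when its detected probes were averaged, chosen after seeing the data, 37. Of the 7 pathway genes, ahrra did not pass the size rule at 6 dpf and the count was 0 with no background subtraction (ratio 0.91), with the mean of all or of the detected probes (0.60), and without array 1 of 6 dpf (0.95), so the range with 1 array left out was 0 to 1. For stage the count of 2 was 1 with no background subtraction and with the mean of detected probes, 0 with the mean of all probes, and 1 to 2 with 1 array left out (1 without array 2 of 3 dpf, ahrra at 0.94). In the genotype fit, estimates near 0 changed sign: ahr2 was -0.037 with median centring and -0.13 to 0.14 with 1 array left out, arnt2 was -0.0028 with no background subtraction, -0.071 to 0.082 with 1 array left out and -0.098 with the deposited table, cyp1a was 0.012 with the mean of all probes and -0.063 to 0.031 with 1 array left out, cyp1c1 was -0.29 to 0.085 with 1 array left out (0.085 without array 1 of 3 dpf) and 0.11 with the deposited table, and ahrra was -0.49 with the deposited table, whose 3 dpf value is 1 array. Genotype called 0 of the 7 genes under every alternative run, in a test that counts a difference between the stages as error. Beyond the pairing of genotypes on each array and within each stage, which the ratios already hold, replicates could not be matched. No further paired analysis was possible because the labels number no replicates. Dim signal limits ahr1a, ahr1b, ahrrb and the ahrra value of the mutant at 3 dpf.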
